A study of Mus musculus with 10 samples.

Results

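The microRNA (miRNA) content of small extracellular vesicles from brown adipose tissue (BAT), the heat-producing fat of mammals, was sequenced in C57BL/6J mice, an inbred laboratory strain. The libraries were chosen by their titles alone, with no measured value: 3 titled Exe (exercised) and 3 titled Sed (sedentary) BAT vesicles, 6 of the 10 libraries of the series. For each library the authors deposited a read count for each of 679 mature microRNAs. Libraries of both titles carry the same schedule in their labels, sessions of 90 min, 2 a day for 4 weeks, so that the Sed group is read as untrained from its title only. Nothing in the sources used here gives the mode of exercise, the age or sex of the mice, or whether animals were pooled. No label ties a replicate number to an animal of its own. The spread that the p-values rest on is therefore a spread between libraries, part or all of which could be technical.

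A miRNA is cut from a hairpin precursor, which can yield a mature strand from its 5′ side (5p) and one from its 3′ side (3p). Usually one of these arms is kept on an Argonaute protein and the other is degraded. The kept strand finds messenger RNAs mainly through its seed, bases 2 to 8, so that miRNAs with the same seed form a family with shared targets. Fat is known as a large source of vesicle miRNAs in blood, and brown fat depends on miRNAs for its identity, among them miR-193b, miR-365, miR-378a and miR-455. The study is about heart protection by exercise through BAT vesicles, and the comparison asks which miRNAs of the vesicles differed with training.

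Mature sequences were matched by name to RefSeq entries on GRCm38.p6, which held 570 of the 679 miRNAs and 168 of the 199 with enough reads to be tested (84.4%). They are printed 5′ to 3′, with the seed in capitals. The first set is the let-7 family, because it was the family with the most reads that changed as a whole. All 9 tested 5p members carried 1 seed. Differences of 1 base separate let-7a-5p from let-7c-5p, let-7e-5p and let-7f-5p, and let-7b-5p from let-7c-5p, so reads with a sequencing error can be counted to a neighbour.
let-7c-5p: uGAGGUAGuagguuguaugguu
let-7b-5p: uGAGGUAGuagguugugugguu
let-7a-5p: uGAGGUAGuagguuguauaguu
let-7f-5p: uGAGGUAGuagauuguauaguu
let-7i-5p: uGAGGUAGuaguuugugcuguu
miR-98-5p: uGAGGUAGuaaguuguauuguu
let-7e-5p: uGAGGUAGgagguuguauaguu
let-7d-5p: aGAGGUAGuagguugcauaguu
let-7g-5p: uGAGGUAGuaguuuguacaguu

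The second set holds the hairpins whose arms changed unequally, as both arms of each have to be seen to follow that result. The hairpins let-7a-1 and let-7c-2 have 1 sequence of the 3p strand between them, and 1 miR-24-3p strand comes from the miR-24-1 and the miR-24-2 hairpin.
let-7c-2-3p: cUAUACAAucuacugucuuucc
let-7d-3p: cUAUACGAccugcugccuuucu
miR-26a-5p: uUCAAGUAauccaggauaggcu
miR-26a-2-3p: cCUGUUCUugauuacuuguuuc
miR-24-1-5p: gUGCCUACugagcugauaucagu
miR-24-2-5p: gUGCCUACugagcugaaacagu
miR-24-3p: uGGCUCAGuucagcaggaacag
miR-30e-5p: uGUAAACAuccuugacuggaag
miR-30e-3p: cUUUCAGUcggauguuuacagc
miR-142a-5p: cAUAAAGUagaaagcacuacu
miR-142a-3p: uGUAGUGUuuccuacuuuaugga
miR-193a-5p: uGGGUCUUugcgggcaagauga
miR-193a-3p: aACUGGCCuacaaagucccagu

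The third set is the other miRNAs with the largest changes, the first 5 lower in Exe libraries and the rest higher. No seed is shared within it, and miR-193b-3p carries the seed of miR-193a-3p above.
miR-136-5p: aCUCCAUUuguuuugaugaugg
miR-379-5p: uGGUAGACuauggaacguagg
miR-411-5p: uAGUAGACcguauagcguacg
miR-96-5p: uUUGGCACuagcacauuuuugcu
miR-1291: aUGGCUCUuacugaagacuagcaguu
miR-1249-3p: aCGCCCUUcccccccuucuuca
miR-6538: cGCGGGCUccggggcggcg
miR-30c-1-3p: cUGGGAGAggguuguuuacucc
miR-350-3p: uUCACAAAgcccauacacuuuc
miR-203b-5p: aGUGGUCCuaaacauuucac
miR-139-5p: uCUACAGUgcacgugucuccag
miR-193b-3p: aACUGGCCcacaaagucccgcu
miR-425-3p: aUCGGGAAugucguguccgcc

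The libraries held 104064 to 169345 miRNA reads in Sed against 116584 to 172279 in Exe, which was 0.492% to 0.904% of the sequenced totals implied by the deposited RPM (reads scaled to the sequenced total). Between 420 and 470 miRNAs had a read in a library. Sed replicate 2 stood apart before any test: miR-378a-3p took 3.65% of its miRNA reads against 16.7% to 27.1% in the other 5 libraries, the let-7 family took 26.2%, and its scaling factor was 1.28 against 0.923 to 0.986. Results that rest on it are given with and without it. Levels are in CPM, counts scaled by library size with TMM factors, which sets libraries to a common level for most miRNAs. Changes are log2 fold changes of Exe over Sed with their standard errors (SE), adjusted p-values come from edgeR's quasi-likelihood test with Benjamini-Hochberg adjustment over all 199 tested miRNAs, and the threshold was 0.05. In such bulk RNA, fewer vesicles from a cell type and less of a miRNA in each vesicle cannot be told apart.

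Of 199 tested miRNAs, 45 passed the threshold (22.6%), 19 of them higher in Exe (9.55%) and 26 lower (13.1%). The median over all tested miRNAs was -0.06. In 43 of the 45, the Exe libraries and the Sed libraries did not overlap in CPM, which was also so for 88 of all 199. The exceptions were miR-376a-3p and miR-122-5p. Low counts also bear on who could be tested: 11 of the 19 higher miRNAs reached the filter's level in all Exe libraries and not in all Sed libraries, and 7 of the 26 lower ones the reverse. The balance between higher and lower moved with the scaling, while all 45 kept their direction under each of the 15 alternatives in which they were tested. Upper-quartile factors moved the median miRNA by 0.15 and gave 26 higher and 20 lower. With no factors beyond library size the shift was -0.12 and the split 14 and 24, and the library totals implied by RPM shifted it by 0.21 for a split of 25 and 13. Single libraries also set how many miRNAs passed: 22 without Exe replicate 1, 28 without Exe replicate 2 and 16 without Exe replicate 3, all of which were among the 45 in the last case. Without Sed replicate 2 the count was 56, with 36 of the 45 kept.

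**Figure D1:**
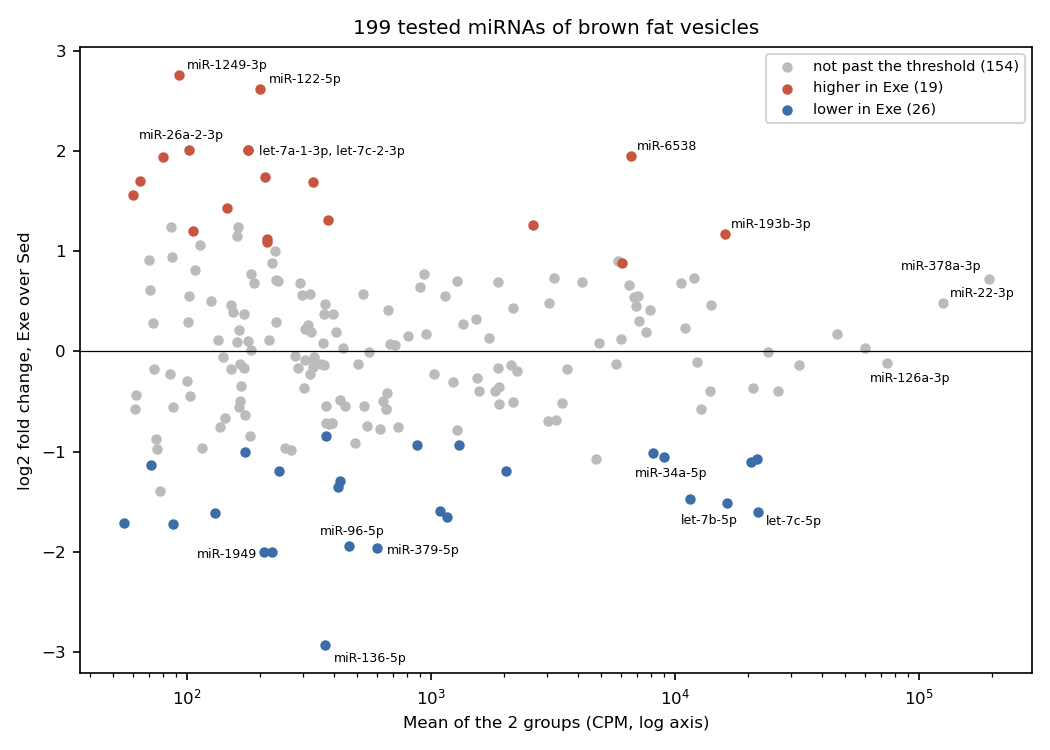
Each point is 1 of 199 tested miRNAs, placed by its mean level over both groups (CPM, log axis) and its log2 fold change of Exe over Sed. The 19 miRNAs past the threshold and higher are red, the 26 lower are blue, and the most abundant miRNA, miR-378a-3p, lies above 0 without passing.

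Falls were deepest for miR-136-5p, a miRNA of the imprinted Dlk1-Dio3 region that mostly maternal chromosomes express. It had 85, 112 and 62 reads in the Sed libraries and 10, 16 and 10 in the Exe libraries. Every Exe library was far below every Sed library, and mean levels were 652 ± 167 CPM in Sed and 84.9 ± 20.6 CPM in Exe (SD, 3 libraries each), for a log2 change of -2.93 ± 0.32 (adjusted p = 0.000838). Its gene, at chr12:109595331-109595352 on the plus strand of GRCm38.p6, lies opposite Mir3071, and whether the counting used strand is not given in the sources used here. miR-379-5p, from the same region at chr12:109709065-109709085, had 151, 118 and 111 reads against 21, 40 and 45, a fall of 1.97 ± 0.25 on the log2 scale (adjusted p = 0.0017). miR-411-5p, encoded about a kilobase further on at chr12:109710190-109710210, had 317, 99 and 275 reads against 39, 109 and 98. Its Sed replicate 2 was near the Exe libraries, and its change of -1.65 ± 0.45 (adjusted p = 0.0261) did not pass when Sed replicate 1 or 3, or Exe replicate 1 or 3, was left out.

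The Dlk1-Dio3 region, whose miRNAs come from long non-coding transcripts and are known from embryonic and muscle progenitor cells, gave 11 tested miRNAs of 69 listed. All 11 lay below 0 and 7 fell, with a median of -1.0015, against 13.1% lower and a median of -0.06 over all tested miRNAs. Of these falls, miR-136-5p, miR-369-3p and miR-376a-3p reached the filter's level in all Sed libraries and not in all Exe libraries. Such a miRNA can enter the test through the group in which it is high. The direction was not kept by all 11 under every setting: upper-quartile factors put 1 above 0, the RPM totals put miR-127-3p at 0.05 and miR-434-3p at 0.04, and leaving out a library put up to 2 above 0. The number of falls was 2 when Sed replicate 3, Exe replicate 1 or Exe replicate 3 was left out, 3 without Sed replicate 1 or Exe replicate 2, and 6 without Sed replicate 2. Within the region the run of genes around Mir154 had 6 falls among 8 tested and a median of -1.33. The smaller run around Mir127 had 1 fall among 3 tested, since miR-127-3p (-0.18 ± 0.38, adjusted p = 0.772) and miR-434-3p (-0.17 ± 0.34, adjusted p = 0.74) did not pass. The fall of miR-376a-3p rested on groups that overlapped, with 53, 13 and 62 reads against 3, 17 and 16. miR-369-3p had 13, 11 and 10 reads against 1, 5 and 5, and its call held with 1 of the 6 libraries left out and not with the other 5.

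A second group of falls was the let-7 family, which promotes differentiation and restrains growth factor and insulin signalling. Of the 9 tested members with the seed printed above, 6 fell. let-7c-5p had 4558, 6164 and 2496 reads in Sed against 1436, 1760 and 1319 in Exe, a change of -1.61 ± 0.32 (adjusted p = 0.0107). let-7b-5p had 3787, 4081 and 1932 reads against 972, 1289 and 1348, and its level went from 24227 ± 6554 to 8469.7 ± 69.2 CPM (SD, n = 3 each; -1.52 ± 0.26, adjusted p = 0.00753). The Exe libraries thus agreed closely on let-7b-5p and the Sed libraries did not. miR-98-5p (-0.93 ± 0.27), let-7i-5p (-1.01 ± 0.23), let-7f-5p (-1.07 ± 0.26) and let-7a-5p (-1.10 ± 0.26) fell less, and let-7e-5p (-0.78 ± 0.29, adjusted p = 0.0766), let-7d-5p (-0.58 ± 0.26, adjusted p = 0.128) and let-7g-5p (-0.37 ± 0.25, adjusted p = 0.304) did not pass. The family took 15.6%, 26.2% and 11.99% of miRNA reads in Sed against 7.71%, 8.93% and 6.86% in Exe. All 9 were below 0 under each scaling and with each library left out, whereas the number of falls was 5 without Sed replicate 2, 2 without Exe replicate 1, 1 without Exe replicate 3 and 2 under the RPM totals.

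Further falls came from miRNAs of several tissues. The epithelial miR-96-5p, of a cluster known from sensory cells that also holds miR-182 and miR-183, had 81, 134 and 73 reads against 21, 31 and 29 (-1.94 ± 0.30, adjusted p = 0.00471). Its partners lay below 0 without passing, miR-182-5p at -0.91 ± 0.37 (adjusted p = 0.101) and miR-183-5p at -0.75 ± 0.39 (adjusted p = 0.182). miR-1b-5p and miR-1a-3p, from muscle loci that encode miR-1 and miR-133, fell by 1.59 ± 0.25 (adjusted p = 0.00471) and 1.47 ± 0.30 (adjusted p = 0.0107) on the log2 scale. Reads of miR-1b-5p were 233, 258 and 162 in Sed and 57, 97 and 79 in Exe. Mir1b lies on the strand opposite Mir1a-2, so these entries may share reads if strand was not used. The other 4 tested muscle miRNAs did not pass: miR-133a-3p, which is made from the same transcripts as miR-1a, was at 0.46 ± 0.24 (adjusted p = 0.179) and miR-206-3p at 0.19 ± 0.27 (adjusted p = 0.637). The muscle list took 3.13%, 5.86% and 3.37% of reads in Sed against 2.98%, 3.63% and 2.56% in Exe, and its part in the falls of miR-1 was not tested.

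Of lower abundance, miR-1949 had 47, 54 and 39 reads against 18, 9 and 9 (-2.005 ± 0.40, adjusted p = 0.0107). miR-24-1-5p, a strand that is normally discarded, had 16, 23 and 14 against 5, 9 and 3 (-1.72 ± 0.45, adjusted p = 0.0234). miR-1291 had 24, 35 and 19 against 9, 9 and 9 (-1.61 ± 0.36, adjusted p = 0.0139), and since its sequence also lies within the small nucleolar RNA Snora34, reads of the 2 cannot be separated. miR-34a-5p, a p53 target known to restrain the browning of fat, was abundant and fell from 12214 ± 642 to 5897 ± 337 CPM (SD, n = 3 each; -1.05 ± 0.20, adjusted p = 0.0107). miR-29b-3p, which represses collagen genes, fell by 1.19 ± 0.26 and miR-32-5p, known to favour brown fat, by 1.35 ± 0.36 on the log2 scale (adjusted p = 0.0139 and 0.0243). miR-148a-3p, an adipocyte miRNA (-1.29 ± 0.38, adjusted p = 0.036), and miR-142a-3p, of blood cells (-1.19 ± 0.28, adjusted p = 0.0154), passed with groups apart, as the rule for named falls requires. The call of miR-148a-3p held in 7 of 15 alternatives. It was lost when any 1 Exe library was left out and without Sed replicate 2, which held 131 of its 240 Sed reads and without which the change was -0.67.

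Rises were led in size by miR-1249-3p, with 0, 5 and 4 reads in Sed against 16, 32 and 21 in Exe (2.76 ± 0.63, adjusted p = 0.0151). At these counts the fold is imprecise, and the gene lies in an exon of 5031439G07Rik on chromosome 15, so fragments of that transcript could be counted. miR-6538 rose at a much higher level, from 414, 178 and 454 reads to 1907, 1067 and 1251 (1.95 ± 0.45, adjusted p = 0.0151). It has the highest share of G and C among the matched miRNAs, 94.7%, and its gene lies in an intron of Rnf144a at chr12:26414970-26414988. The rise was not called without Sed replicate 1 or without Exe replicate 1, which had 16674 CPM against 6946 and 7906 in the other Exe libraries. miR-350-3p had 11, 9 and 17 reads against 29, 69 and 41 (1.75 ± 0.41, adjusted p = 0.0151). Its groups did not overlap, which the rule for named rises requires, and it reached the filter's level in all Exe libraries and not in all Sed libraries. miR-203b-5p had 28, 5 and 28 reads against 50, 81 and 86 (1.69 ± 0.48, adjusted p = 0.0337). It is the reverse complement of miR-203-3p over 20 bases, and that strand, of skin and epithelia, was at 0.41 ± 0.29 (adjusted p = 0.323).

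Several rises were strands that are rare beside the other arm of their hairpin. miR-26a-2-3p had 9, 4 and 3 reads in Sed against 25, 25 and 18 in Exe (2.01 ± 0.43, adjusted p = 0.0132). The 3p strand common to let-7a-1 and let-7c-2 had 16, 10 and 3 reads against 32, 50 and 41 (2.01 ± 0.40, adjusted p = 0.0107). Both entries hold these same reads, so they are 1 observation under 2 names. miR-30c-1-3p had 6, 3 and 4 reads against 11, 27 and 17 (1.94 ± 0.43, adjusted p = 0.0139), and miR-193a-5p 9, 14 and 8 against 27, 26 and 37 (1.43 ± 0.34, adjusted p = 0.0154). In each of these the lowest Exe library was above the highest Sed library, which the rule for named rises requires. miR-425-3p (1.13 ± 0.26, adjusted p = 0.0151) rose while its partner miR-425-5p was at 0.03 ± 0.27 (adjusted p = 0.924).

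Further rises included miRNAs of brown fat. miR-193b-3p, which promotes brown fat differentiation, had 996, 1696 and 1133 reads in Sed against 2793, 3246 and 3312 in Exe, or 9839 ± 3233 against 22161 ± 1960.0 CPM (SD, n = 3 each; 1.17 ± 0.29, adjusted p = 0.0167). miR-328-3p, reported to act on brown fat through the protease Bace1, had 216, 181 and 203 reads against 417, 651 and 500 (1.26 ± 0.24, adjusted p = 0.0107). miR-139-5p, encoded in an intron of the phosphodiesterase gene Pde2a on chromosome 7, had 27, 37 and 22 against 55, 89 and 88 (1.31 ± 0.27, adjusted p = 0.0107). For these 3 miRNAs each Exe library exceeded each Sed library, as the rule for named rises requires. miR-320-3p (0.88 ± 0.23, adjusted p = 0.0234), miR-186-5p (1.09 ± 0.34, adjusted p = 0.0476) and miR-3074-2-3p (1.21 ± 0.37, adjusted p = 0.0423) also passed. The last is the reverse complement of miR-24-2-5p over 20 bases, which was at -0.55 ± 0.25 (adjusted p = 0.129). The call of miR-320-3p held in 10 of 15 alternatives, that of miR-186-5p in 6 of 14 and that of miR-3074-2-3p in 5 of 14. miR-122-5p, the dominant miRNA of liver, had 13, 5 and 4 reads against 88, 30 and 12, a change of 2.62 ± 0.82 (adjusted p = 0.0493) with overlapping groups. Its call held with 1 of the 5 single libraries left out where it could be tested, and was lost without any 1 Sed library or Exe replicate 1, with limma-voom, without a filter and with identical rows counted once.

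**Figure D2:**
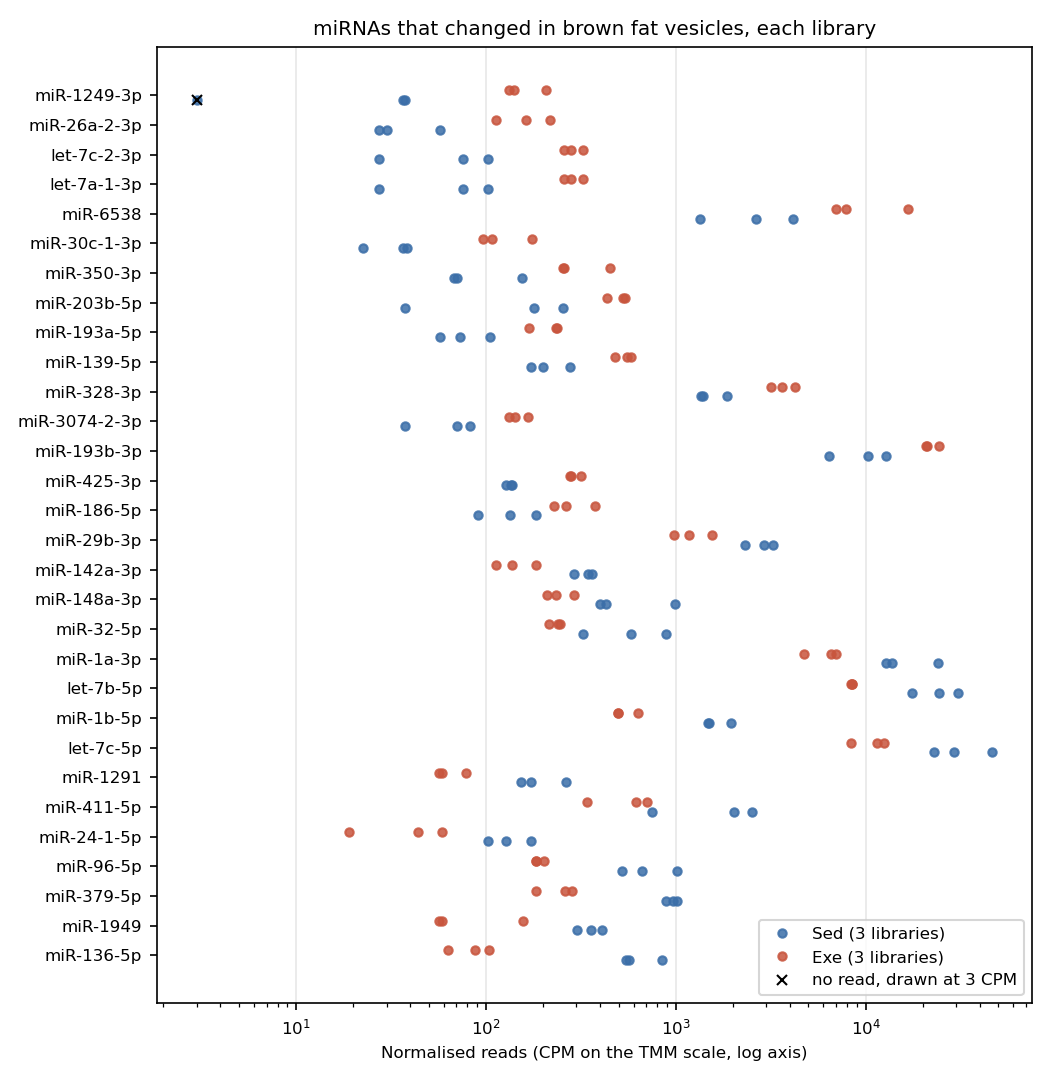
Levels of the 30 miRNAs named by the rule for largest changes in each library (CPM, log axis), Sed libraries in blue and Exe libraries in red, ordered by fold change. No row shows an overlap of the groups, because the rule admits only miRNAs whose groups do not overlap. The cross marks the Sed library with no read of miR-1249-3p.

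Of the 10 most abundant miRNAs, 8 did not pass, the exceptions being let-7f-5p and let-7c-5p. miR-378a-3p, encoded in an intron of the coactivator gene Ppargc1b and active in brown fat lipid use, had 28351, 3804 and 24801 reads in Sed against 31590, 33877 and 35733 in Exe. Its change of 0.73 ± 0.62 (adjusted p = 0.414) goes with Sed replicate 2, as it took 16.7% and 21.4% of reads in the other Sed libraries and 27.1%, 21.3% and 20.7% in the Exe libraries. Without Sed replicate 2 the change was 0.31. miR-22-3p, of fat and muscle metabolism, took 10.7%, 6.17% and 14.3% of reads in Sed against 13.1%, 14.8% and 14.1% in Exe (0.48 ± 0.43, adjusted p = 0.431), and its change was 0.21 without Sed replicate 2. The endothelial miR-126a-3p (-0.12 ± 0.32, adjusted p = 0.786), the smooth muscle miR-143-3p (0.03 ± 0.44, adjusted p = 0.955), the red cell miR-451a (0.17 ± 0.42, adjusted p = 0.782), miR-26a-5p (-0.14 ± 0.26, adjusted p = 0.74), miR-16-5p (-0.39 ± 0.25, adjusted p = 0.281) and miR-99a-5p (-0.01 ± 0.23, adjusted p = 0.979) did not pass.

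The ratio of 3p to 5p reads of a hairpin was tested next, because both arms are read in 1 library and their ratio does not depend on how libraries are scaled. The test was limma on log2 of the ratio with 0.5 added to each count, over the 34 hairpins with both arms tested. For 9 hairpins (26.5%) the ratio changed, 7 toward the 3p arm and 2 toward the 5p arm, and the median over all 34 was 0.44. Low counts bear on which hairpins could be tested. The rare arms of let-7c-2, let-7a-1, miR-26a-2 and miR-193a reached the filter's level in all Exe libraries and not in all Sed libraries. For miR-24-1-5p it was the reverse. let-7c-2 led: the 3p strand made up 0.350%, 0.162% and 0.12% of its reads in Sed against 2.18%, 2.76% and 3.02% in Exe. That is a difference in log2 ratio of 3.74 ± 0.60 (SE, limma adjusted p = 2.05e-07), with the 5p arm down and the 3p arm up. let-7a-1 shares the 3p reads and differed by 3.24 ± 0.60 (limma adjusted p = 5.12e-06), so it is not independent. The 5p reads of let-7a and let-7c also come from hairpins other than these, which the ratio cannot separate.

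let-7d gave the tightest groups. Its 3p strand had 4.36%, 4.34% and 4.10% of the reads in Sed against 10.2%, 10.1% and 10.7% in Exe, a difference of 1.36 ± 0.43 (limma adjusted p = 0.0132), although neither arm passed on its own. For miR-30e the 3p strand rose from 17.8%, 16.3% and 12.75% to 25.0%, 36.4% and 30.4% (1.25 ± 0.45, limma adjusted p = 0.0283). miR-26a-2 went from 0.138%, 0.0981% and 0.0956% to 0.679%, 0.608% and 0.339% (2.13 ± 0.66, limma adjusted p = 0.0132). Its 5p reads also come from the miR-26a-1 hairpin, which the ratio cannot separate. In all 3 hairpins the 5p arm is the more abundant, and every Exe library had a larger share of the 3p arm. The call of let-7d held in 8 of 11 alternatives, that of miR-30e in 7 of 11 and that of miR-26a-2 in 8 of 10. Each was lost without Exe replicate 2 and without Exe replicate 3, and those of let-7d and miR-30e also without Sed replicate 3. The miR-24 hairpins moved further toward their abundant 3p arm, miR-24-1 by 2.56 ± 0.67 (limma adjusted p = 0.00254) and miR-24-2 by 1.33 ± 0.47 (limma adjusted p = 0.0281). They have 1 set of 3p reads between them, and the call of miR-24-2 held in 5 of 11 alternatives, among its losses those without Sed replicate 2 or 3 and without Exe replicate 2 or 3.

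Toward the 5p arm moved miR-142a, a hairpin of blood cells, and miR-193a. In miR-142a the 3p strand had 84.4%, 94.1% and 78.05% of the reads in Sed against 65.0%, 60.0% and 64.4% in Exe (-1.90 ± 0.69, limma adjusted p = 0.0283), from 13 to 54 reads of that strand per library. The 5p strand had only 10, 3 and 9 reads in Sed against 7, 14 and 16 in Exe. The call of miR-142a held in 7 of 8 alternatives and was lost without Sed replicate 1. In miR-193a the 3p strand had 99.0%, 91.5% and 98.7% against 92.0%, 95.3% and 85.1% (-1.89 ± 0.72, limma adjusted p = 0.038), and here the groups overlapped. The calls of both let-7 hairpins with 1 common 3p strand held under all 10 alternatives, that of miR-24-1 under 9 of 10 and that of miR-193a under 3 of 10. The number of hairpins called was 2 without Exe replicate 3 and 3 without Exe replicate 2, against 13 of 42 without Exe replicate 1 and 12 of 44 without Sed replicate 2. The median difference of 0.44 was 0.04 without Exe replicate 1 and -0.13 without Sed replicate 2, over the hairpins then tested.

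**Figure D3:**
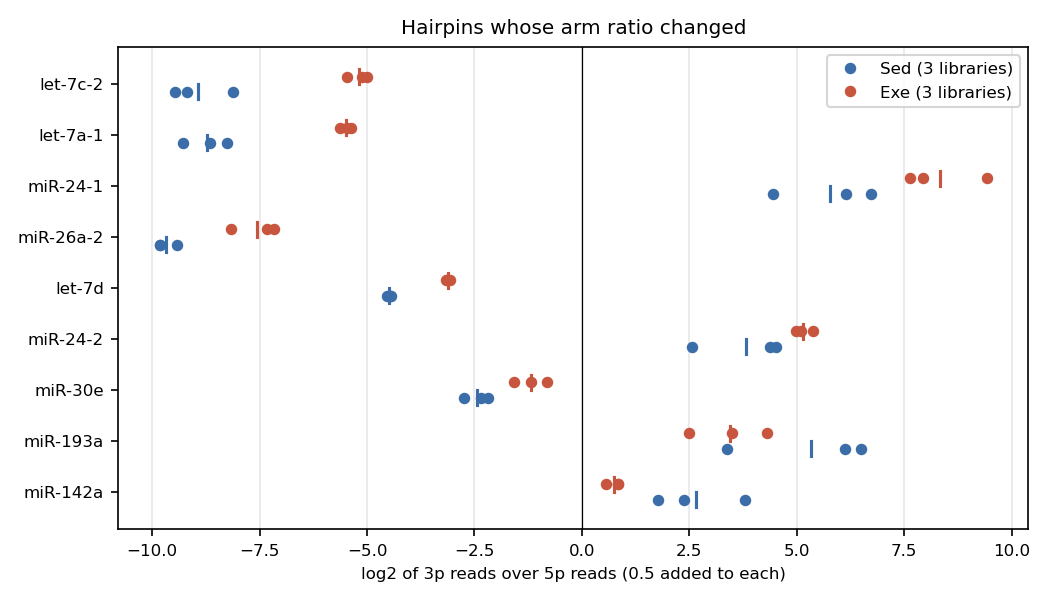
For the 9 hairpins whose arm ratio changed, log2 of 3p over 5p reads (0.5 added to each) is plotted for each Sed library (blue) and Exe library (red), with a bar at each group mean. Points right of 0 are hairpins read mostly from the 3p arm; in let-7c-2 the means were -8.93 in Sed and -5.19 in Exe, and only the miR-193a groups overlap.

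Over all tested miRNAs, strands were sorted by whether they were the more or the less abundant arm of their hairpin. Among 132 more abundant arms 10 were higher and 18 lower, and among 34 less abundant arms 7 were higher and 2 lower, against 9.55% higher and 13.1% lower over all tested. Of these 7 rises, 6 reached the filter's level in all Exe libraries and not in all Sed libraries, so they entered the test through the group in which they were high. The let-7 3p strand is counted under both of its names. By side, 5 of 108 5p strands were higher and 16 lower (median -0.22), and 13 of 76 3p strands were higher and 8 lower (median 0.25). The 2 less abundant arms that fell were miR-24-1-5p and miR-486b-3p. Arm and side are not independent of each other, and no test of these counts was made.

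Reads summed by seed were tested in the same way, over the miRNAs with a RefSeq sequence. Of 129 seed families 25 passed (19.4%), 15 higher and 10 lower, and with rows of identical reads counted once 29 passed, 12 higher and 17 lower. Most were families of 1 tested member and repeat its result, while 4 families with at least 2 distinct tested members passed. The let-7 5p family had 26429, 27219 and 13917 reads in Sed against 8988, 14176 and 11823 in Exe, a log2 change of -0.98 ± 0.24 (adjusted p = 0.0138). The family of rare let-7 3p strands with seed UAUACAA passed as well. With the strand common to let-7a-1 and let-7c-2 counted once, it had 17, 14 and 4 reads against 37, 56 and 42 (1.79 ± 0.35, adjusted p = 0.0075). That of miR-30c-1-3p and miR-30c-2-3p had 20, 9 and 13 against 33, 50 and 36 (1.46 ± 0.32, adjusted p = 0.0105). miR-500-3p and miR-501-3p together had 20, 28 and 17 against 39, 54 and 47 (1.05 ± 0.29, adjusted p = 0.025), and this call held in 4 of 13 alternatives, lost with each single library left out except Sed replicate 2. These groups did not overlap. The let-7 5p call was lost with the library totals implied by RPM and without Exe replicate 1 or Exe replicate 3.

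The family of miR-193a-3p and miR-193b-3p, whose members act in brown fat formation, joins strands with changes of opposite sign. Summed, they had 1856, 1846 and 1721 reads in Sed against 3104, 3769 and 3524 in Exe, a change of 0.89 ± 0.23 (adjusted p = 0.0173). Scaled, that was 20548 ± 3263 CPM in Sed against 38000 ± 4402 CPM in Exe (SD, n = 3 each). Of these, miR-193a-3p gave 860, 150 and 588 reads against 311, 523 and 212 (-0.69 ± 0.55, adjusted p = 0.376). Without Sed replicate 2, the library with 150 reads, miR-193a-3p fell, with a change of -1.07 (adjusted p = 0.00906). Relative to its mean level, the sum varied less between Sed libraries than either strand did, and it passed in 5 of 13 alternatives. miR-365-3p, whose genes neighbour those of miR-193a and miR-193b, had 726, 1288 and 552 reads against 316, 653 and 346 (-1.08 ± 0.35, adjusted p = 0.0547). It was named after its value was seen. The families with the most reads besides let-7, those of miR-22-3p (0.53 ± 0.35), miR-126a-3p (-0.07 ± 0.25), miR-451a (0.24 ± 0.37) and miR-99a, miR-99b and miR-100 (0.06 ± 0.22), did not pass (adjusted p from 0.292 to 0.853).

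Among 17 tested miRNAs listed as favouring brown fat, 4 rose (miR-455-3p, miR-328-3p, miR-193a-5p and miR-193b-3p) and 1 fell (miR-32-5p), with a median of 0.55 against -0.06 over all tested. Of the 17, 10 lay above 0 and 7 below, against 95 and 104 of all tested miRNAs. Among the rises, miR-455-3p and miR-193a-5p are the less abundant arms of their hairpins. Both reached the filter's level in all Exe libraries and not in all Sed libraries, so they entered the test through the group in which they were high. The same holds for miR-193b-5p, a member of the list that lay above 0 without passing. miR-455-3p had 6, 2 and 4 reads against 9, 13 and 17 (1.57 ± 0.44, adjusted p = 0.0306), while its more abundant partner miR-455-5p was at -0.12 ± 0.32 (adjusted p = 0.786). The call of miR-455-3p was lost in all 3 fits with a library left out in which it could be tested. The list took 23.8%, 13.4% and 28.1% of reads in Sed against 36.3%, 29.9% and 28.6% in Exe, with miR-378a-3p as its largest member in all but Sed replicate 2. Of 10 listed as restraining brown fat, 2 fell (miR-34a-5p and let-7i-5p) and none rose in edgeR's quasi-likelihood test, with a median of 0.16. Of 7 adipocyte miRNAs 2 fell (miR-148a-3p and miR-30e-5p) and none rose. With 9.55% of all tested miRNAs higher and 13.1% lower, the shares of the restraining and adipocyte lists rest on 2 miRNAs each. The rises of the list favouring brown fat rest on 4.

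Markers of other cells were present in all 6 libraries. Endothelial miRNAs took 9.26% to 13.5% of reads in the 6 libraries, smooth muscle and fibroblast miRNAs 6.85% to 11.4%, red cell miRNAs 3.50% to 7.19% and muscle miRNAs 2.56% to 5.86%. Leukocyte, liver, epithelial and neural miRNAs took 0.0844% to 1.32%. None of 8 tested endothelial, 9 smooth muscle and fibroblast and 4 neural miRNAs passed in edgeR's quasi-likelihood test. The share over all tested miRNAs was 45 of 199 (22.6%). Of 6 red cell miRNAs 1 fell (miR-486b-3p, with 15, 12 and 12 reads against 4, 7 and 8), of 7 leukocyte miRNAs 1 (miR-142a-3p), of 4 epithelial miRNAs 1 (miR-96-5p) and of 6 muscle miRNAs 2, where 13.1% of all tested miRNAs fell. Shares resting on 1 or 2 miRNAs of so short a list cannot be set apart from that background. Of 3 liver miRNAs 1 rose (miR-122-5p), and the liver list took 0.113%, 0.135% and 0.140% of reads in Sed against 0.238%, 0.135% and 0.122% in Exe. The part of these cells in the changes was not tested.

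The GC content of the mature strand went along with the change. Strands that were higher had a median of 54.5% G and C (n = 16 with a sequence), those lower 40.9% (n = 22) and all 168 matched miRNAs 45.5%, of which 9.52% were higher and 13.1% lower. Among 33 strands with under 40% G and C, 3 were higher and 9 lower (median -0.49), the let-7 3p strand being counted under both of its names. Among 61 with at least 50%, 10 were higher and 2 lower (median 0.37). Spearman's rho between GC content and log2 change was 0.382 across the 168 miRNAs, which share libraries and depth and are no independent replicates. It was 0.346 without the let-7 family and between 0.352 and 0.395 with each library left out. Among the 58 miRNAs with a mean of at least 100 reads it was 0.537, among the 114 more abundant arms 0.477 and among the 27 less abundant arms -0.037.

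Reads of matched miRNAs made up 81.9% of miRNA reads in Sed replicate 2 and 58.1% to 67.2% in the other libraries, as no sequence was at hand for miR-378a-3p or miR-143-3p. Weighted by reads, the matched miRNAs of the Sed libraries had 43.7%, 43.2% and 44.6% G and C and those of the Exe libraries 46.6%, 45.4% and 45.3%. The groups did not overlap, also without the let-7 family (45.3%, 45.3% and 46.0% against 47.9%, 46.6% and 46.1%). Exe replicate 1 was the highest in both. Without let-7 the gap was small, with Sed replicate 3 at 45.98% and Exe replicate 3 at 46.15%. These means include the reads of miR-6538, which has 94.7% G and C and was higher in Exe. Whether the groups stay apart without miR-6538 was not computed. A first base U was found in 83 strands, of which 4 were higher and 17 lower, and a first base C in 31, of which 6 were higher and none lower, against 9.52% and 13.1% of all matched strands. The 17 include every let-7 5p member that fell, and the 6 count the let-7 3p strand under both of its names. Of these 6, the let-7 3p strand, miR-26a-2-3p and miR-30c-1-3p reached the filter's level in all Exe libraries and not in all Sed libraries. No test of these counts was made. Length did not differ in its median, 22 bases in strands higher, lower and not called. The sorting motifs GGAG and GGCU, known from proteins that load miRNAs into vesicles, were searched on the mature strand only. GGAG was in 13 of 168 strands (7.74%), of which 1 was higher and none lower, and GGCU in 21 (12.5%), of which 2 were higher and 1 lower.

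**Figure D4:**
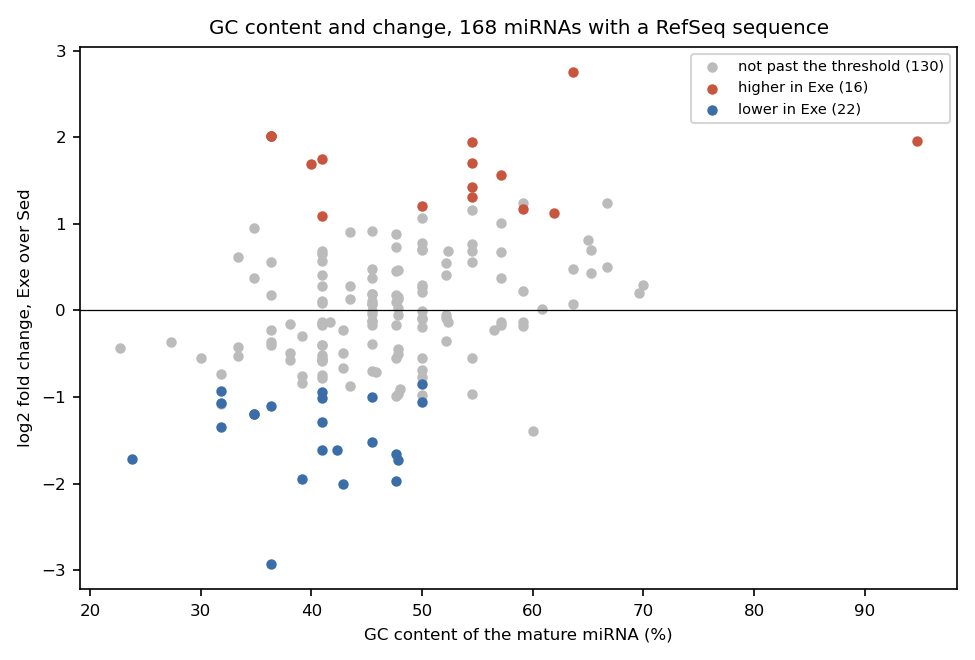
GC content of the mature strand (percent, horizontal axis) against the log2 fold change of Exe over Sed (vertical axis) for 168 tested miRNAs with a RefSeq sequence, those past the threshold coloured. Higher miRNAs (red, 16) have a median of 54.5% and lower ones (blue, 22) of 40.9%, and miR-6538 lies at the far right.

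How far each call depends on single libraries differed between miRNAs. With each of the 6 libraries left out in turn, 12 of the 45 kept their call every time. Among rises these were miR-1249-3p, miR-350-3p, miR-328-3p, miR-26a-2-3p, miR-139-5p and both names of the let-7 3p strand. Among falls they were let-7b-5p, miR-1b-5p, miR-136-5p, miR-96-5p and miR-379-5p. The log2 change of miR-379-5p ranged from -1.997 to -1.74 and that of miR-139-5p from 1.17 to 1.60. At the other end, miR-98-5p and miR-486b-3p lost their calls with any 1 of the 6 left out, and miR-455-3p in the 3 cases in which it could be tested, though miR-98-5p stayed between -1.09 and -0.64 and miR-486b-3p between -1.15 and -0.95. By library, 32 of the 45 kept their call without Sed replicate 1, 36 without Sed replicate 2, 29 without Sed replicate 3, 19 without Exe replicate 1, 25 without Exe replicate 2 and 16 without Exe replicate 3. miR-122-5p moved most, from 1.37 without Exe replicate 1 to 3.26.

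**Figure D5:**
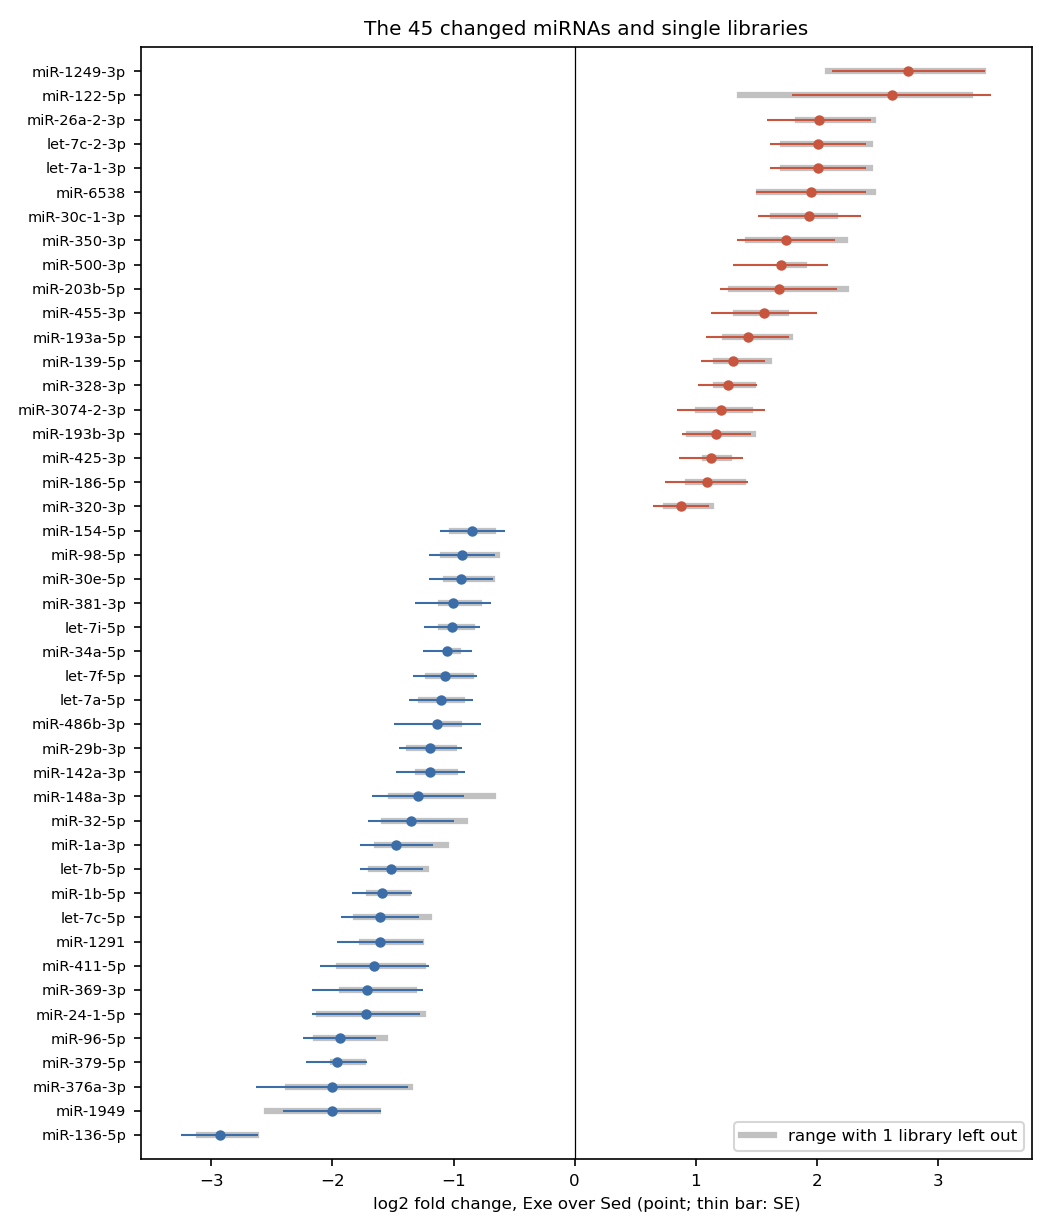
Log2 fold change of Exe over Sed for each of the 45 miRNAs past the threshold, with its SE as a thin bar and a thick grey bar for the range over fits with 1 library left out. No grey bar reaches 0, and the widest is that of miR-122-5p.

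In its published form the study followed miR-125b-5p, miR-128-3p and miR-30d-5p in the heart. They are outside the rule for named miRNAs and were looked up after other values had been seen. miR-128-3p had 30, 24 and 10 reads in Sed against 35, 43 and 45 in Exe, so that each Exe library was above each Sed library in reads, with a change of 0.88 ± 0.32 (adjusted p = 0.0711). miR-125b-5p had 436, 340 and 201 reads against 253, 278 and 360 (-0.19 ± 0.25, adjusted p = 0.599). miR-30d-5p had 707, 623 and 554 against 508, 885 and 781 (0.08 ± 0.21, adjusted p = 0.785). None of the 3 passed in edgeR's quasi-likelihood test, which does not show that their levels were alike.

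How far reads were concentrated on few miRNAs was described by a pair of values per library. The 10 most abundant miRNAs took 61.6%, 49.0% and 65.0% of reads in Sed against 62.75%, 62.7% and 66.55% in Exe (exact permutation p = 0.4, two-sided, 0.1 being the smallest that 3 against 3 allows). The effective number of miRNAs, the exponential of the Shannon entropy, was 34.35, 47.2 and 30.15 in Sed and 28.0, 30.5 and 27.9 in Exe (exact permutation p = 0.2, two-sided). Sed replicate 2 was highest, and the difference of -8.45 became -3.46 without it.

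Of the 679 miRNAs, 480 were not tested. They held 0.574% of all reads and at most 87 reads each, so changes in them were mostly not detectable at this depth. The let-7f-2-3p strand, another rare let-7 arm, had no read in Sed and 1, 9 and 3 in Exe, at least 4.05-fold higher against a floor of 3 counts over the Sed group. miR-26a-1-3p, the rare arm of the other miR-26a hairpin, had none in Sed and 3, 2 and 1 in Exe (at least 1.87-fold higher). In the other direction miR-297c-5p had 0, 7 and 6 reads in Sed and none in Exe (at least 4.64-fold lower). miR-299a-3p had 5, 1 and 4 (at least 3.57-fold lower) and miR-34b-5p 2, 3 and 3 (at least 2.85-fold lower), each with none in Exe. miR-8114 and miR-3963 had reads in Exe alone and miR-300-5p in Sed alone, at 5 or 6 reads. These floors cover counting error only.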

How the data were processed

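Small RNA of BAT vesicles was read in 3 Sed and 3 Exe libraries. For each miRNA the authors deposited a read count and RPM (reads scaled to the sequenced total) per library, per the file headers, and RPM was used here only for the implied library totals. The submitters' processing notes name Bowtie 0.12.2 and the builds mm8 and mm9, without their roles. Nothing in the sources used here gives the counting program, miRBase release, trimming or use of strand.

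Counts were tested with edgeR 4.0.16 (R 4.3.3) by the quasi-likelihood test with TMM scaling, filterByExpr and robust fitting, with group as the only term. Arm ratios were tested with limma 3.58.1 with a variance trend, and counts summed by seed again with edgeR. All were adjusted by Benjamini-Hochberg over each whole table. The tests of miRNAs and of arm ratios, but not that of seed sums, were also run on simulated data. DESeq2 1.42.0 was an alternative. Genes, hosts and clusters (neighbours within 10 kb) come from GENCODE M21, sequences from RefSeq on GRCm38.p6. Depth was 104064 to 172279 miRNA reads per library, and a miRNA with 10 reads is measured imprecisely whatever the test.

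Named miRNAs were up to 15 rises and 15 falls by size among those past the threshold with a mean of at least 10 reads and groups that did not overlap, their opposite arms, the 10 most abundant, changed hairpins and families, and called members of the lists. The rule, lists and members were chosen with earlier results of these data known. Plasma libraries of the series were not used here.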

Additional observations from a re-analysis of the deposited data

How the results depend on the processing

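Each result was recomputed with other scalings, tools and count filters and with each library left out. The number of miRNAs past the threshold was 21 among the 107 averaging 50 or more counts, and 16 to 56 with 1 library left out. Hairpins with a changed arm ratio numbered 2 of 6 where both arms averaged 50 or more counts, and 2 to 13 with 1 library left out. Seed families numbered 8 to 27 with 1 library left out. With the replicate block, the numbers were 25 miRNAs, 8 hairpins and 9 seed families. Replicate numbers are only names here: deviations of libraries with the same number correlated at 0.0042, -0.0833 and -0.1201, and no library correlated best with its own number. Under the other alternatives the counts of calls stayed within 1.5 times.

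Among the miRNAs and families named by the rule, signs turned only for changes that had not passed. Under 3 settings (upper-quartile factors, RPM totals, and only miRNAs averaging 50 or more counts) the log2 change was 0.0843, 0.062 and 0.0539 for miR-100-5p, 0.0206, 0.15 and 0.0074 for miR-126a-3p, and 0.0271, 0.0366 and 0.0123 for miR-26a-5p. For miR-99a-5p it was 0.14, 0.23 and 0.13 under the same 3, 0.041 with DESeq2 and 0.0008 without a filter. With library size alone it was -0.0159 for miR-143-3p and -0.12 for miR-425-5p. The miR-126a-3p family was at 0.15 with RPM totals, and the ACCCGUA family log2 fold change (miR-99a, miR-99b and miR-100) was -0.0685 with upper-quartile factors, -0.01 with DESeq2, -0.0463 without a filter and -0.1031 with identical rows counted once. With 1 library left out, ranges were -0.20 to 0.30 for miR-100-5p, -0.25 to 0.15 for miR-126a-3p, -0.23 to 0.46 for miR-143-3p, -0.19 to 0.0557 for miR-26a-5p, -0.0512 to 0.30 for miR-425-5p, -0.18 to 0.61 for miR-451a and -0.0234 to 0.11 for miR-99a-5p. For the families of miR-126a-3p, miR-99 with miR-100, and miR-451a they were -0.35 to 0.0087, -0.0794 to 0.15 and -0.29 to 0.64. The cause of these shifts was not tested. The alternatives for GC content and for classes of strands, and family sums with identical rows counted once, were chosen after seeing the data. With 3 libraries a group, changes in rare miRNAs were mostly not detectable.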

Other observations

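A few further values stood out on reading through the counts, and were chosen after they were seen. miR-532-5p, from the X-linked cluster that also holds miR-500 and miR-501, had 82, 1 and 42 reads in Sed against 84, 86 and 0 in Exe. It was thus near absent from 1 library of each group and abundant in the others, and its change was 0.47 ± 1.55 (SE; edgeR quasi-likelihood adjusted p = 0.823), or -0.54 with limma-voom. Its neighbour miR-500-3p rose, with 5, 4 and 3 reads against 9, 15 and 19 (1.70 ± 0.39, adjusted p = 0.0151).

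The arm ratio passed for miR-193a and did not for miR-193b, where it differed by -0.42 ± 0.68 (SE; limma adjusted p = 0.628). miR-193b-5p had 2, 15 and 3 reads against 16, 21 and 14 (1.24 ± 0.61, adjusted p = 0.161) beside the rise of 1.17 of miR-193b-3p. In miR-193a the rare 5p strand rose by 1.43 ± 0.34 on the log2 scale (adjusted p = 0.0154) and the 3p strand was at -0.69 ± 0.55 (adjusted p = 0.376). Without Sed replicate 2 the 3p strand was lower at -1.07 (adjusted p = 0.00906). The difference between these hairpins was not tested.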
